A study of Mus musculus with 8 samples.

Results

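The AP-1 family of Fos, Jun and Batf3 was examined in the islets of tamoxifen-treated mice with and without Fzd9, a receptor for Wnt proteins. The members were set as 8 genes, Fos, Fosb, Fosl1, Fosl2, Jun, Junb, Jund and Batf3, and each was read from the brightest, over all arrays, of the probe sets that name this gene alone. Such a probe set was found for 7 of the 8 genes, among 22180 genes read in the same way. Fosl1 has no value here, because its probe set also names Ccdc85b. The family was chosen with the difference between the genotypes known, so the KO and WT levels of its members are given as a description, without a test.

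The series holds 8 Affymetrix Mouse Gene ST arrays, 1 for each of 4 Fzd9 WT and 4 Fzd9 KO mice on a C57Bl/6 background. All 8 mice carried MycER, a Myc protein that tamoxifen switches on and that the insulin promoter drives in β-cells, and a BclXL transgene, also under an insulin promoter, which protects these cells from apoptosis. All were 8 to 12 wk old by the methods of the study and received tamoxifen i.p. for 3 d, while Fzd9 was missing throughout the body in KO mice. By these methods about 20 to 40 islets were pooled per mouse for RNA, while the labels describe insulinoma and weighed tumor tissue. The methods also state that the islets were freed by warm collagenase digestion and picked by hand before RNA was taken. The part of this handling in the levels of the members was not tested. No group shows islets without active Myc.

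Fos and Jun proteins are bZIP factors, which bind DNA as pairs through a basic region and a leucine zipper. Fos proteins need a partner, usually of the Jun family, whereas Jun proteins can also pair with each other, and the dimers bind AP-1 sites and the related cAMP response elements. Most members are immediate early genes. Their transcription starts within minutes of a growth factor, calcium, cAMP or stress signal, without new protein being made, and their mRNAs decay quickly. In islets, glucose and other stimuli of insulin secretion are known inducers of Fos.

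The promoters of the 4 members that passed the threshold of the study (a change of at least 1.2-fold with p under 0.05 before adjustment) are shown because these members were all lower in KO islets. They hold 250 bases before and 50 after the annotated start, 5′ to 3′ on the strand of the gene, from RefSeq on build GRCm38.p6, where a window was found for 7 of the 8 genes. The windows are chr12:85473640-85473939 on the + strand for Fos, chr7:19309996-19310295 on the - strand for Fosb, chr4:95052173-95052472 on the - strand for Jun and chr8:84978699-84978998 on the - strand for Junb. For Fosb the start used lies inside the gene, whose 5′ end is at 19310118, so the bases just before that start belong to the gene. Capitals mark the motif matches described in the next paragraph.
Fos: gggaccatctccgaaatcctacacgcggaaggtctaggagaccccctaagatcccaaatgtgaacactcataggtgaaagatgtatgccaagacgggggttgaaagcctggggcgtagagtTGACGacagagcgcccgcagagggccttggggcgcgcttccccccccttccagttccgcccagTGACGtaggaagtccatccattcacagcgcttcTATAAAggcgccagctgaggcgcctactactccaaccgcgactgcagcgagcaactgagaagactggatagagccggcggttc
Fosb: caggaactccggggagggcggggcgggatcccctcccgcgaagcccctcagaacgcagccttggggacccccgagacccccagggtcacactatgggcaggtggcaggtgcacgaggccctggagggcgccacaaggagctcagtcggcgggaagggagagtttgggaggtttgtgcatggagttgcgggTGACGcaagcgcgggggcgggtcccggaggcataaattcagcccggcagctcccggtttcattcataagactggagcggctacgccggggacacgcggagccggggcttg
Jun: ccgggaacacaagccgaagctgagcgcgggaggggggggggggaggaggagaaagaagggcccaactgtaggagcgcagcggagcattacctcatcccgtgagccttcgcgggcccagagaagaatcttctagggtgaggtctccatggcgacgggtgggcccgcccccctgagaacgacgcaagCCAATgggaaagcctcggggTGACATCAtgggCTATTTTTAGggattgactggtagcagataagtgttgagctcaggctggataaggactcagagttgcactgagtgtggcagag
Junb: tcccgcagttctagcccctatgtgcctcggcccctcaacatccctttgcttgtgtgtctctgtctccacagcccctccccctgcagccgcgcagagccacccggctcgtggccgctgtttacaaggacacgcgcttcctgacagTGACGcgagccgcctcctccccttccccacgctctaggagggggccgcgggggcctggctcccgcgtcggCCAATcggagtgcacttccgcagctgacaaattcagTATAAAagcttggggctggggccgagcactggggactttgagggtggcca

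Sites were searched on both strands with the letters TGANTCA (the AP-1 site), TGACNTCA (the cAMP response element and its variants at 1 letter), TGACG (a partial cAMP response element, which can also lie inside the longer one), TATAAA (the TATA box), CCAAT (the CCAAT box) and CACGTG (the E-box of Myc and Max), and for the CArG box of serum response factor and the site of MEF2 factors. TGACG stood in 3 of the 7 windows, those of Fos, Fosb and Junb, and in 20.8% of 32851 RefSeq windows of the same length. Counting the first base of the transcript as 1, it lay at bases −129 to −125 and −66 to −62 of Fos. It also lay at −60 to −56 of Fosb and −106 to −102 of Junb. The match in Fosb lies inside the gene, because the start used there is not its 5′ end. Jun held TGACATCA, a match to TGACNTCA, at −45 to −38, and this motif stood in 8.83% of all windows. A MEF2 site, in 0.557% of all windows, followed it at −33 to −24. TATAAA was found in Fos at −33 to −28 and in Junb at bases 1 to 6 (13.6% of all windows), and CCAAT in Jun at −65 to −61 and in Junb at −36 to −32 (37.4%). The window of Batf3 held the E-box alone, at −247 to −242 (7.15%). No window of the family held TGANTCA or a CArG box with the letters used, which stood in 7.81% and 1.63% of all windows. The windows of Fosl2 and Jund held no match. Bases outside the windows were not searched. A CArG box or AP-1 site farther upstream, of Fos or of another member, would therefore have been missed. The matches given are matches of letters, and binding was not measured.

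**Figure D1:**
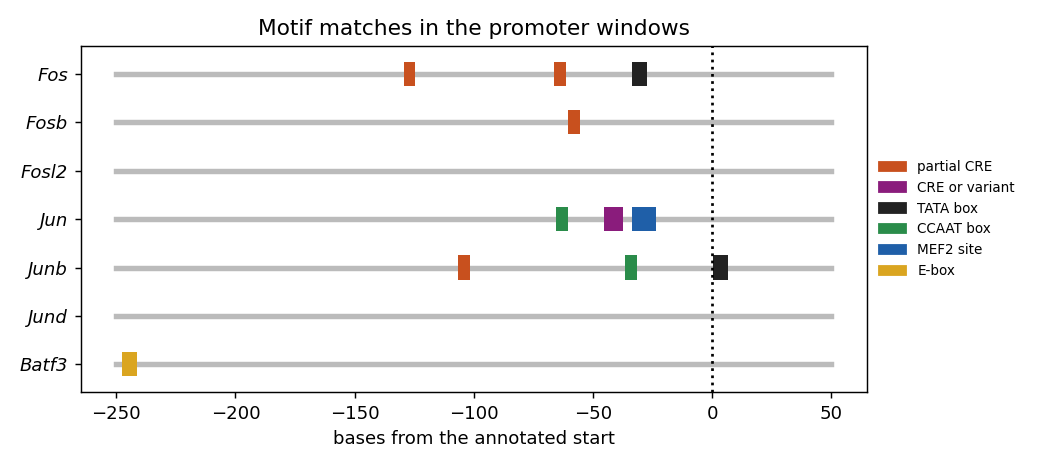
Motif matches in the promoter windows of the 7 AP-1 genes with a RefSeq window, drawn to scale against the distance in bases from the annotated start (dotted line), where each colour is 1 motif and partial CRE stands for TGACG. The TGACG matches lie in Fos, Fosb and Junb, and the windows of Fosl2 and Jund are empty.

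The Fos subfamily held the 2 largest falls among the 22180 genes. Fosb, a partner of Jun proteins that is induced like Fos, had log2 levels of 7.86, 10.54, 9.74 and 10.04 in the 4 WT mice and of 5.67, 6.70, 5.45 and 6.42 in the 4 KO mice. Every KO mouse lay below every WT mouse, and WT mouse 1 was the WT mouse nearest to the KO mice. The WT mean was 9.55 ± 1.17 and the KO mean 6.06 ± 0.60 (SD, n = 4 each), so Fosb fell by 3.49 on the log2 scale (standard error 0.54), which is 11.2-fold. Fosb lies on chromosome 7 (19302696 to 19310118). In such bulk samples, fewer cells of a type and less RNA per cell cannot be told apart.

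Fos, the prototype of the family, lies on chromosome 12 (85473890 to 85477274). It was at 6.78, 8.89, 7.53 and 8.64 in the WT mice and at 5.45, 6.21, 5.97 and 5.85 in the KO mice. The genotypes again did not overlap, and WT mice 2 and 4 were well above WT mice 1 and 3. Fos fell by 2.09 (standard error 0.44), or 4.26-fold, from 7.96 ± 0.98 to 5.87 ± 0.32 (SD, n = 4 each), the second largest fall after that of Fosb.

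Fosl2, which encodes the Fos-related protein Fra-2, lies on chromosome 5 (32136472 to 32157840). It was at 5.34, 7.44, 5.19 and 5.12 in the WT mice and at 4.94, 5.21, 5.02 and 4.78 in the KO mice. The WT mean rested on mouse 2, while the other 3 WT mice were close to the KO mice, 2 of them below the highest KO value. The log2 fold change of −0.78 (standard error 0.47) did not pass the threshold, and it was −0.23 without WT mouse 2.

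The Jun subfamily was lower in KO islets in all 3 members, although Jund did not pass the threshold. Jun, which can pair with itself or with any Fos protein, lies on chromosome 4 (95049036 to 95052222). It was at 9.00, 9.81, 9.25 and 9.44 in the WT mice and at 7.90, 7.93, 7.92 and 7.96 in the KO mice. The gap between the genotypes was 1.04, and the 4 KO mice differed from each other by at most 0.05. Jun fell by 1.45 (standard error 0.21), or 2.73-fold, from 9.37 ± 0.34 to 7.93 ± 0.02 (SD, n = 4 each). The KO spread of Jun lay at percentile 0.0496 of the spreads of all genes in KO islets, and its WT spread at percentile 53.9 of those in WT islets. The fall of Jun was the 17th largest.

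Junb, whose protein activates some AP-1 sites less strongly than Jun and can oppose it, lies on chromosome 8 (84976909 to 84978748). It was at 7.16, 8.88, 7.94 and 7.48 in the WT mice and at 6.51, 6.60, 7.04 and 6.45 in the KO mice. The genotypes were separated by only 0.13, between WT mouse 1 and KO mouse 3. Junb fell by 1.22 (standard error 0.35), or 2.33-fold, and by 0.88 without WT mouse 2.

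Jund, the member of the Jun family that is expressed most steadily in resting cells, lies on the same chromosome (70697739 to 70700616). Its brighter probe set was at 4.94, 5.85, 5.13 and 5.02 in the WT mice and at 4.77, 4.72, 4.58 and 4.86 in the KO mice. All KO mice lay below all WT mice by 0.08, yet the log2 fold change of −0.50 (standard error 0.24) did not pass the threshold. It was −0.30 without WT mouse 2, and it passed without WT mouse 1, at −0.60. A dimmer probe set for Jund overlapped between the genotypes and differed by −0.39 (standard error 0.25). It was at 3.50, 3.47, 2.79 and 3.63 in WT and 3.17, 3.30, 2.66 and 2.72 in KO mice. These readings lay at percentiles 93.4 in WT and 85.1 in KO islets of the background probe sets described for Batf3 below, so a change could not be read there.

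Batf3, a small bZIP factor that pairs with Jun proteins and is best known from dendritic cells, lies on chromosome 1 (191098414 to 191108943). It was at 3.49, 3.75, 4.33 and 3.70 in the WT mice and at 3.81, 3.21, 3.28 and 3.59 in the KO mice. These are low readings, at percentiles 96.8 in WT and 93.1 in KO islets of 1400 probe sets for receptors of the nose, which were taken as background. The genotypes overlapped, and the log2 fold change was −0.34 (standard error 0.24), or −0.17 without WT mouse 3.

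**Figure D2:**
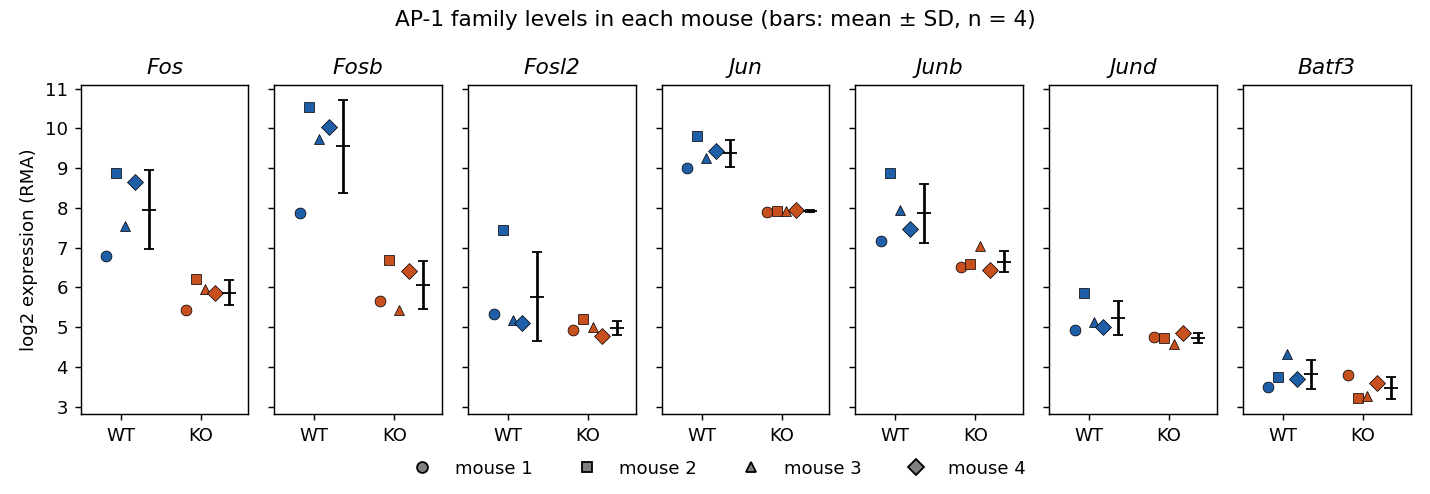
Log2 expression (RMA) of the 7 AP-1 genes, 1 point per mouse with the mouse number as the symbol, and bars for the mean ± SD of 4 WT and 4 KO mice. Fos, Fosb, Jun, Junb and Jund show no overlap between the genotypes, the 4 KO points of Jun lie on top of each other, and WT mouse 2 stands above the other WT mice in Fosl2.

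Counted over the family, 4 of 7 members passed the threshold downward (Fosb, Fos, Jun and Junb), 0 passed upward, and 3 did not pass. Of all 22180 genes, 1.17% passed downward and 1.28% upward, and of all 41345 probe sets 658 (1.59%) and 786 (1.90%). All KO mice lay below all WT mice in 5 of 7 members, against 1.11% of all genes. The median log2 fold change of the members was −1.22, and that of all genes read in the same way was −0.00. These shares describe members that were picked on this contrast. After Benjamini-Hochberg adjustment of limma's p-values over the 41345 probe sets, 0 had an adjusted p under 0.05, and 1444 (3.49%) had an unadjusted p under 0.05.

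**Figure D3:**
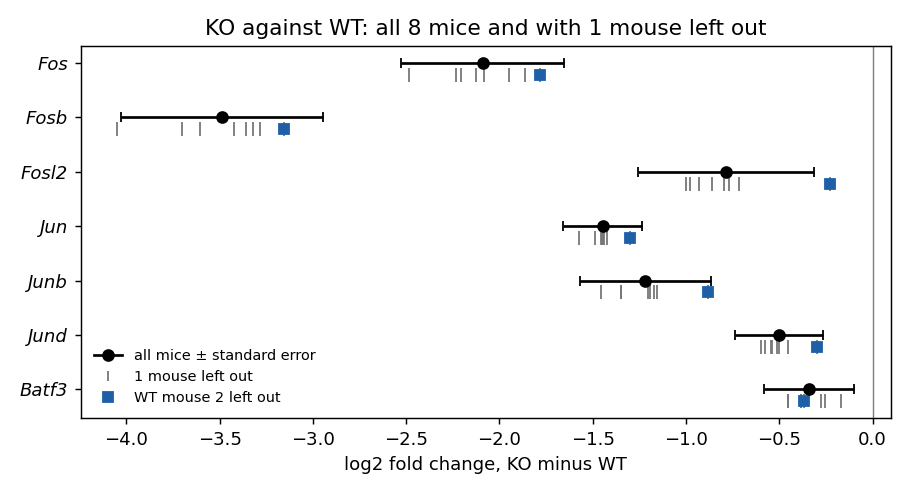
Log2 fold change (KO minus WT) of the 7 AP-1 genes over all 8 mice with its standard error, and with 1 mouse left out in turn (ticks), where the square marks the value without WT mouse 2. All values lie below 0, from −3.49 for Fosb to −0.34 for Batf3, and without WT mouse 2 Fosl2 is at −0.23.

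The mice of a genotype differed from each other mainly among the WT mice. The SD was larger in WT than in KO islets for 7 of 7 members, against 54.1% of all genes. Part of this count rests on WT mouse 2. Without it, the WT SD was below the KO SD for Fosl2 (0.11 against 0.18) and Jund (0.09 against 0.12). For the other members it stayed above. WT mouse 2 was the highest WT mouse for 6 of 7 members (not for Batf3), and WT mouse 1 was the lowest for 6 of 7 (not for Fosl2). Averaged over the 7 members, the log2 level was 6.37, 7.88, 7.02 and 7.06 in the WT mice and 5.58, 5.80, 5.61 and 5.70 in the KO mice.

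WT mouse 2 also had the highest mean log2 level, among the WT mice, of 9 duct markers (4.34, others 3.43 to 4.01), 13 endothelial markers (5.97, others 4.25 to 5.41), 13 stromal markers (5.61, others 3.87 to 5.03) and 12 leukocyte markers (4.06, others 3.54 to 3.79). In KO islets these levels ranged from 3.50 to 3.77, 4.77 to 6.01, 4.02 to 4.79 and 3.55 to 3.83. The markers that lay below the 95th percentile of the nose receptors in the whole series were 4 of the duct, 2 of the endothelial, 3 of the stromal and 5 of the leukocyte list. Endothelial markers were as high in KO mouse 3 (6.01) as in WT mouse 2, and the mean over the AP-1 members was 5.61 in that mouse. The 18 markers of islet endocrine cells were lowest, among WT mice, in mouse 2 (7.28, others 7.51 to 7.88) and ranged from 7.17 to 7.42 in KO mice. Of all these markers, 1 endothelial marker passed the threshold downward and 0 passed upward. The part of other cell types in the levels of WT mouse 2 was not tested.

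WT mouse 3 and KO mouse 1 gave the arrays least like the rest. Their mean correlations with all others were 0.897 and 0.893, and those of the remaining 6 mice lay between 0.917 and 0.926. They also had the highest level of 28 acinar markers, 5.27 and 6.38, against 3.62 to 4.57 in the other 6 mice. Batf3 was highest in these same mice within each genotype. The part of acinar RNA in the Batf3 levels was not tested. The count of members past the threshold was 4 with these mice and 4 without them. The level of Fzd9 itself overlapped between the genotypes, with 2.88 ± 0.67 for WT and 2.53 ± 0.35 for KO mice (SD, n = 4 each). Both means were below the 95th percentile of the nose receptors (3.46 in WT, 3.68 in KO islets), so a change could not be read there. No source used here says whether the Fzd9 probes lie in the deleted part either, so these levels check no genotype label.

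Whether the members moved together between mice of 1 genotype was asked on deviations from the mean of the genotype, from which the genotype difference is removed. As the members were chosen with earlier results of these data known, the p-values that follow are a description. Over the 8 mice, the deviations of Fos had a Pearson r of 0.85 with those of Fosb (exact two-sided permutation of mice within each genotype, p = 0.0156, adjusted over 6 relations p = 0.0938) and a Spearman rho of 0.81 (exact permutation p = 0.0417, adjusted p = 0.240). With Jun, r was 0.90 (exact permutation p = 0.0521, adjusted p = 0.156) and rho 0.93 (exact permutation p = 0.0799, adjusted p = 0.240). For Junb, Jund and Fosl2 the r with Fos was 0.63, 0.58 and 0.56 (exact permutation p = 0.274, 0.370 and 0.420). With Batf3 it was −0.16 (exact permutation p = 0.845). None of the 6 relations passed the adjustment.

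WT mice 1 and 2 lay farthest from the median of the Fos deviations, at −1.18 and 0.92. Without them, r over the other 6 mice was 0.79 for Jun and 0.49 for Fosb. It was −0.05, −0.34, −0.44 and −0.84 for Fosl2, Junb, Jund and Batf3. The deviations were still from genotype means that included WT mice 1 and 2, so a genotype difference could enter these values. They therefore cannot decide whether a relation rested on these 2 mice. With the means taken anew, r without WT mouse 2 alone was −0.19, 0.30 and 0.06 for Fosl2, Junb and Jund. Without WT mouse 1 alone it was 0.58, 0.35 and 0.41. KO mice added little to the relation of Fos with Jun, since Jun hardly varied among them. Fosb differed more among KO mice, from 5.45 in mouse 3 to 6.70 in mouse 2.

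**Figure D4:**
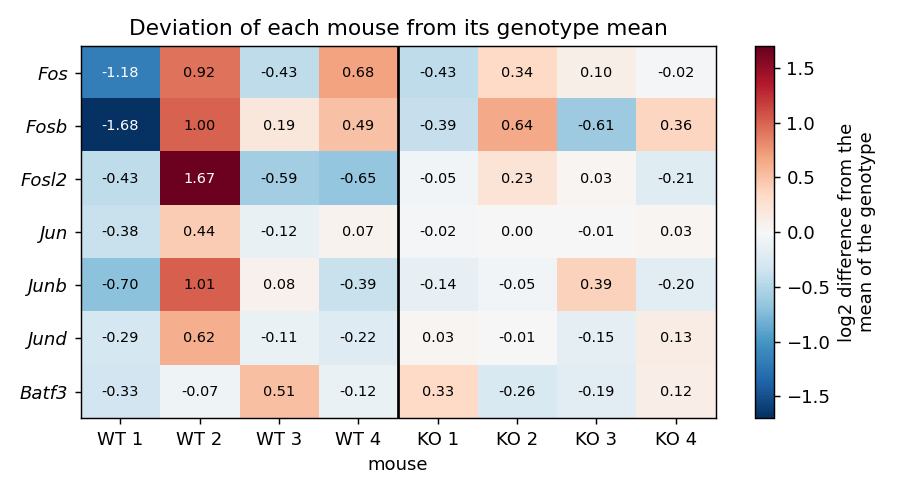
Deviation of each mouse from the mean of its genotype, in log2 units, for the 7 AP-1 genes (rows) in 4 WT and 4 KO mice (columns), with red above and blue below the mean. WT mouse 1 is blue in every row, WT mouse 2 is red in all rows but Batf3, and the KO deviations of Jun lie between −0.02 and 0.03.

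The genes whose profiles over the 8 arrays were most like those of Fos, Fosb and Jun were sought by the root mean square difference between profiles centred on their own means, over 12456 genes above the median level, the AP-1 members left out. The genotype difference is part of this measure. Among these genes, Npas4, a factor induced by calcium entry, had the lowest difference from Fos (0.35) and from Fosb (0.90). It was at 3.62, 6.60, 4.16 and 5.52 in the WT mice and at 2.33, 3.71, 2.87 and 3.10 in the KO mice, with WT mice 2 and 4 the highest, as for Fos. It was followed for Fos by Irs2, an adaptor of the insulin receptor (0.51), Mir7-2 (0.52), Actb (0.57) and Nr4a2, a nuclear receptor induced early after stimulation (0.59), and for Fosb by Atf3 (0.94), Mir5124a (1.12), Rgs2, a brake on G protein signaling (1.13), and Mir7-2 (1.22).

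For Jun, the lowest differences outside the members were those of Rasd1, a small G protein (0.22), Actb, which encodes β-actin (0.22), Tiparp (0.28), Klf6, a zinc finger factor (0.30), and Zfp810 (0.31). Rasd1 was at 5.36, 6.22, 5.89 and 5.46 in the WT mice and at 4.19, 4.60, 4.30 and 4.69 in the KO mice. The Actb probe set was at 3.51, 4.72, 3.66 and 4.25 in the WT mice and at 2.81, 3.09, 2.79 and 2.76 in the KO mice. Both were lower in every KO mouse than in every WT mouse. The KO means of Npas4 (3.00), Actb (2.86), Zfp810 (3.09) and Mir5124a (3.55) were below 3.68, the 95th percentile of the nose receptors in KO islets. Between members, the difference was 0.36 for Jun and Junb, 0.56 for Fos and Jun, and 0.82 for Fos and Fosb. Fos was thus nearer to Fosb than Npas4 was, and Jun nearer to Fos than Actb and Nr4a2 were. However, Npas4, Irs2 and Mir7-2 were nearer to Fos than Jun, its nearest member, was. All the genes named for Jun were nearer to it than Junb, its nearest member, was.

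Outside the members, the list of other bZIP factors, which can pair with Fos or Jun or bind related sites, had 26 of 28 genes measured. Atf3 passed the threshold downward, 0 passed upward and 25 did not pass, with a median log2 fold change of −0.12. Atf3, a stress-induced factor that pairs with Jun proteins, was at 4.75, 8.35, 6.29 and 6.27 in the WT mice and at 4.48, 4.26, 4.23 and 4.90 in the KO mice. WT mouse 2 was again highest and WT mouse 1 lowest, the latter within the KO range. Atf3 fell by 1.95 (standard error 0.61), and by 1.30 without WT mouse 2. The small Maf factor Mafk was lower in every KO mouse, at −0.32 (standard error 0.19) without passing. Atf2 and Atf7, partners of Jun proteins, were at −0.14 and 0.12. In 8 of the 26 genes, Cebpd, Nrl, Batf and Jdp2 among them, the mean was below the 95th percentile of the nose receptors in both genotypes (3.46 in WT, 3.68 in KO islets), so a change could not be read there. Cebpd was at −0.39, and at −0.12 without WT mouse 2, and Nrl was at 0.31.

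Of the kinases and factors upstream of Fos and Jun, 31 of 38 were measured, of which 2 passed downward and 0 upward, with a median of −0.13. Srf, the serum response factor that drives transcription of Fos, was at 6.15, 6.83, 6.17 and 6.79 in the WT mice and at 5.67, 5.74, 5.99 and 5.90 in the KO mice. The genotypes did not overlap, and WT mice 2 and 4 were the highest, as they were for Fos. Srf fell by 0.66 (standard error 0.23). Mapk9, the Jun kinase JNK2, was at 5.07, 4.60, 4.69 and 4.90 in the WT mice and at 3.91, 4.21, 4.51 and 4.56 in the KO mice, and fell by 0.52 (standard error 0.22). Its call was lost without WT mouse 1 (−0.43), WT mouse 4 (−0.49), KO mouse 1 (−0.39) or KO mouse 2 (−0.49), and with the mouse number as a block. The other Jun kinases, Mapk8 and Mapk10, were at 0.04 and −0.23. The partners of Srf in the ternary complex, Elk1, Elk3 and Elk4, were at 0.13, −0.33 and 0.41, and Mef2d, of the factors that bind MEF2 sites, was at 0.28, none of them past the threshold.

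Of the genes for the turnover of Fos and Jun mRNA and protein, 14 of 17 were measured and 0 passed the threshold in limma's fit, with a median of −0.12. Elavl1, which encodes the RNA-stabilising protein HuR, came nearest, at −0.45 (standard error 0.21). It was at 7.25, 7.21, 6.53 and 6.86 in the WT mice and at 6.47, 6.52, 6.54 and 6.53 in the KO mice, so WT mouse 3 lay within the KO range. Zfp36, which encodes tristetraprolin, a protein that speeds the decay of early response mRNAs, was at −0.70 (standard error 0.49) and was high in WT mouse 2 alone (8.03, against 5.56 to 6.07 in the other WT mice), without which it was at −0.14. Fbxw7, which marks Jun for degradation, was at −0.25, and Khsrp, a decay factor, at −0.17.

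Among genes known as AP-1 targets, 37 of 40 were measured, 5 passed downward, 0 upward and 32 did not pass, with a median of −0.08. Mt1, a metallothionein, was at 6.78, 7.36, 6.91 and 7.11 in the WT mice and at 5.76, 6.36, 6.08 and 6.40 in the KO mice, and fell by 0.89 (standard error 0.22). Dusp1, a phosphatase that inactivates MAP kinases, was at 7.94, 9.47, 7.77 and 8.02 in the WT mice and at 6.93, 6.96, 7.72 and 7.15 in the KO mice. The genotypes did not overlap in either gene, although KO mouse 3 came close to WT mouse 3 for Dusp1. Dusp1 fell by 1.11 (standard error 0.38), and by 0.72 without WT mouse 2.

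The remaining 3 calls among the targets were Trib1, a pseudokinase (−0.65, standard error 0.26), Krt8, an epithelial keratin (−0.48, standard error 0.20), and Nfkbiz, a nuclear regulator of NF-κB (−0.67, standard error 0.28). They were less firm. Trib1 did not pass without WT mouse 2 (−0.46), WT mouse 4 (−0.57) or KO mouse 3 (−0.56). Krt8 did not pass without WT mouse 2 (−0.36), WT mouse 3 (−0.49), KO mouse 1 (−0.45), KO mouse 3 (−0.43) or KO mouse 4 (−0.50). Nfkbiz did not pass without WT mouse 2 (−0.47), WT mouse 3 (−0.63), WT mouse 4 (−0.68), KO mouse 2 (−0.65) or KO mouse 3 (−0.59). Krt8 was also lost with quantile normalization (−0.44) and Nfkbiz with cyclic loess (−0.63) and the methods' t-test, and both with the mouse number as a block. The count of targets past the threshold was 2 without WT mouse 2, and also 2 without KO mouse 3.

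Of the 37 targets, 14 had a mean below the 95th percentile of the nose receptors in both genotypes, and none of these 14 passed. They include classical readouts of AP-1 in other tissues, the proteases Mmp3, Mmp9, Mmp13 and Plau, the inhibitor Timp1 and the cytokines Il6 and Ccl2, whose differences could therefore not be read at this signal. Among targets above that level, the cell cycle genes Ccnd1 and Cdkn1a did not pass, at −0.18 (standard error 0.20) and 0.03 (standard error 0.40). The targets above that level that did not pass ranged from −0.62 (standard error 0.28) for Mt2 to 0.33 (standard error 0.35) for Itga5. The percentages past the threshold downward were 3.85% for other bZIP factors, 6.45% for upstream kinases and factors, 0% for turnover and 13.51% for targets, beside 1.17% of all genes. The lists, like the members, were chosen with earlier results of these data known, so these shares are a description and no test.

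**Figure D5:**
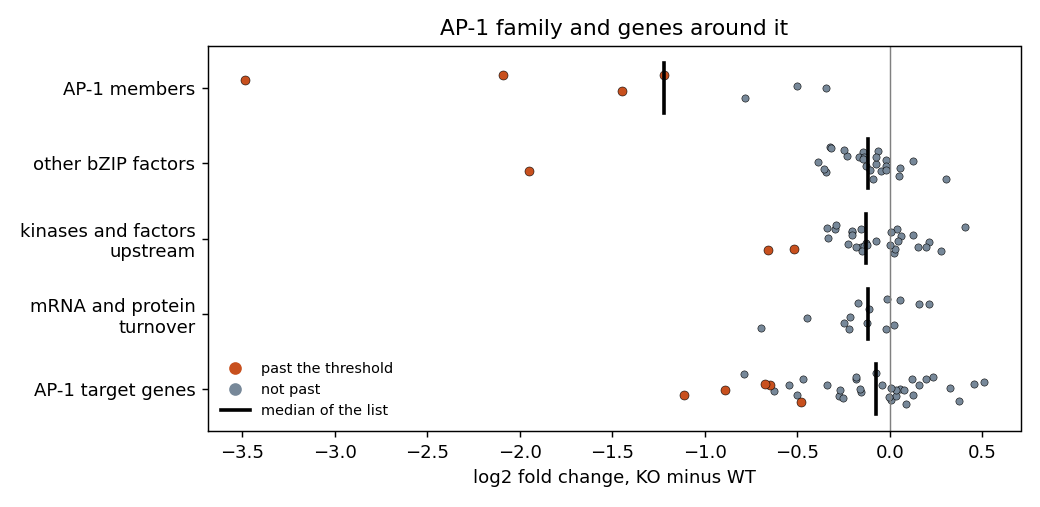
Log2 fold change (KO minus WT) of the 7 AP-1 members and of the measured genes of 4 lists around them, 1 point per gene, with filled orange points for genes past the threshold and a black line at the median of each list. The members have a median of −1.22, and the medians of the lists lie between −0.13 and −0.08.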

How the data were processed

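RNA of 8 mice (4 Fzd9 WT, 4 Fzd9 KO) was hybridised to 1 array each. The deposited values are log2 expression, which the authors made with RMA. The submitters name RMA and Partek as tools and give no version. RMA corrects for background, makes the distributions of the arrays alike and summarises each probe set, which compresses differences of dim probe sets. Array medians lay between 2.90 and 3.17, and the number of arrays limits the precision. Of 41345 probe sets, 23521 named 1 gene. Symbols were updated through Entrez ID for 23328.

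KO and WT were compared with limma (version 3.58.1, R 4.3.3) on all probe sets without a filter, and adjusted by Benjamini-Hochberg. Every fall named passed the study's criterion of p under 0.05, before adjustment, with at least a 1.2-fold change. The methods name a t-test for experiments in general and no test for the arrays. Each array is 1 mouse. Each gene was read from its brightest probe set.

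The members and the gene lists were chosen with earlier results of these data known, so no value of the members serves as a test. Co-variation was planned for 7 relations and covers 6, because Fosl1 has no probe set of its own. The genes named were all members, the genes of each list past the threshold (or, with fewer than 4, those with the lowest p up to 4) and the 5 genes most like Fos, Fosb and Jun. Mapk8, Mapk10, Elk1, Elk3, Atf2, Atf7, Batf, Jdp2 and the targets that did not pass were added after their values had been seen.

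The alternatives were quantile normalization, centring on the median, cyclic loess, a variance trend, a limit to bright probe sets, the methods' t-test, averaging the probe sets of a gene, the mouse number as a block and leaving out each mouse. The limma fit and the permutation test were tested on simulated data, and the motif search on a made sequence. The other steps were not tested in this way.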

Additional observations from a re-analysis of the deposited data

Results flagged for a closer look

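A mouse stood apart from the other 3 of its genotype in 7 of 72 groups of 4 mice, by Dixon's criterion, where 3.6 are due by chance (about 1 in 20). WT mouse 2 stood apart for Fosl2, at 7.44 against 5.12 to 5.34, for Cebpd, at 3.70 against 2.54 to 2.73, and for Dusp1, at 9.47 against 7.77 to 8.02. WT mouse 1 stood apart for Mafk, at 4.66 against 4.46 to 4.49. Among KO mice, mouse 3 was low for Trib1, at 5.59 against 5.91 to 5.94, mouse 2 was high for Actb, at 3.09 against 2.76 to 2.81, and mouse 1 was high for Nr4a2, at 4.78 against 4.45 to 4.51. All values are log2 levels.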

How the results depend on the processing

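All 7 members kept their direction under every alternative that was run, and Fosb, Fos, Jun and Junb stayed past the threshold in each. Jund passed when arrays were centred on their median (−0.54) and without WT mouse 1 (−0.60). Leaving out 1 mouse gave log2 fold changes of −4.05 to −3.15 for Fosb, −2.48 to −1.78 for Fos, −1.57 to −1.30 for Jun and −1.45 to −0.88 for Junb. The count of members past the threshold was 4 to 5, that of other bZIP factors 1 to 2, of upstream genes 1 to 3, of turnover genes 0 to 2 and of targets 2 to 7, in either direction. These include 1 target that passed upward without WT mouse 3, WT mouse 4 or KO mouse 1, and 1 upstream gene that did so without KO mouse 3. With quantile normalization 1 upstream gene also passed upward. Over all probe sets, 580 to 927 then passed downward and 587 to 986 upward, against 658 and 786 with all mice. Above the median level, 382 passed downward and 248 upward, among fewer probe sets tested (20672).

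With the methods' t-test 2 other bZIP factors passed and 1 turnover gene. Quantile normalization and cyclic loess each gave 1 turnover gene, and leaving out WT mouse 3 and KO mouse 1, chosen after seeing the data, gave 2, with 1 upstream gene and 1 target passing upward, while Mapk9, Krt8 and Nfkbiz no longer passed (−0.43, −0.46 and −0.68). The causes were not tested. The r between deviations of same-numbered WT and KO mice was −0.09, 0.03, 0.08 and 0.34 for mice 1, 2, 3 and 4. For WT mouse 4 alone, the KO mouse of the same number was the most alike. Whether mice of the same number share a litter or batch was not tested. With the number as a replicate block, 4 members, 1 other bZIP factor, 1 upstream gene, 0 turnover genes and 5 targets passed. The r of Fos with Fosb was 0.60 to 0.92 and with Jun 0.77 to 0.95 with 1 mouse left out. It turned for Fosl2 without WT mouse 2 (−0.19, range to 0.88) and for Batf3 without WT mouse 3 (0.070, range from −0.93). Dim readings such as Batf3 lie near background, where a change is hard to read.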
